A study of Rattus norvegicus with 36 samples.

Results

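Mmp3 and Mmp10 encode the stromelysins, and their RNA levels were followed in rat precision-cut lung slices, that is, in thin sections of lung tissue cultured alive. The 2 genes are the rows ENSRNOG00000032626 (Mmp3) and ENSRNOG00000032832 (Mmp10) of a count table with 32883 Ensembl gene IDs. The table carries no gene symbols, so the names Mmp3 and Mmp10 were taken as assigned to these 2 IDs and could not be checked in the files. They were chosen by these same counts, because both were higher at the labelled time 72 than at 0 in untreated slices and lay below the time-0 level with pirfenidone. Comparisons that rest on these contrasts are therefore given as descriptions without a test.

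Each of 6 groups held 6 libraries. TGFb, the growth factor used to drive a fibrotic response, was present in slices labelled 72 with Pirf, with Nint, with Sora or with no drug, and was absent from untreated slices labelled 72 and untreated slices labelled 0. Pirf, Nint and Sora are read as pirfenidone, nintedanib and sorafenib. Pirfenidone is an anti-fibrotic drug whose molecular target is not settled, and nintedanib and sorafenib inhibit kinases that include receptors for platelet-derived and vascular endothelial growth factors. The drugs were given only together with TGFb. The labels give no dose, no unit of time, no strain, sex or age of the rats and no number of animals. Each p-value for a difference between groups thus sets it against the spread between libraries, which may be technical. Without symbols, lung cell markers could not be read, and the tissue rests on its label.

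Stromelysins are secreted zinc-dependent proteases made as inactive proenzymes. Once activated they cut proteoglycans, laminin, fibronectin and other parts of the extracellular matrix, and Mmp3 also activates other metalloproteinase proenzymes. Fibroblasts, epithelial cells and macrophages can make them after wounding or in response to inflammatory cytokines, in part through AP-1, the dimer of Fos and Jun proteins, which binds a site in the promoters of many metalloproteinase genes. In cultured rat fibroblasts, TGFb is known to repress stromelysin transcription.

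RefSeq promoter sequences of both genes were available from the rat build GRCr8, which is not the Rnor_6.0 build behind the counts, and were matched by symbol. They are shown because the 2 genes were chosen by the same rule and stand in 1 metalloproteinase cluster. In the RefSeq gene table only Mmp1 lies between the 2 genes, and Mmp1b and Mmp8 lie just outside. Whether the promoter sequences bear on the RNA levels was not tested. Each stretch is the 236 bases that end 15 bases before the transcript start, on the plus strand, with matches to the AP-1 site, TGANTCA, and to the TATA box, TATAAA, in capitals. The Mmp3 stretch is chr8:12925031-12925266 and the Mmp10 stretch is chr8:12974457-12974692.
Mmp3: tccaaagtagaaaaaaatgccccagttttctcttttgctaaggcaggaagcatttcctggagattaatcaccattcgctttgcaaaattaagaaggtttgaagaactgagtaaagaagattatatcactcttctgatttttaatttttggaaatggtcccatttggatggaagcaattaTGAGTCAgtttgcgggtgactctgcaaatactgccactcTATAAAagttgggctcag
Mmp10: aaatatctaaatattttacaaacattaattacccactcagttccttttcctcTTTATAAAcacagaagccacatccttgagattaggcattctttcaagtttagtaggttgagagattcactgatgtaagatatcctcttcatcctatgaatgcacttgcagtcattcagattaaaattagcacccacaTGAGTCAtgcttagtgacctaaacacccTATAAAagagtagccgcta

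Both promoters held 1 AP-1 site, with the same letters in both, which began 71 bases before the start in Mmp3 and 61 bases before it in Mmp10. Of 33469 rat promoters read over the same length on both strands, 6.03% held an AP-1 site. A TATA box began 32 bases before the start in Mmp3 and 33 before it in Mmp10, a motif found in 12.5% of promoters. Mmp10 held a farther stretch that matched the TATA box on both strands, between 198 and 191 bases before the start, where the 2 matches overlap. Both motifs together were found in 0.962% of promoters. The site of Ets factors known as PEA3, AGGAAG, which 27.9% of promoters hold, was matched once in Mmp3, 206 bases before the start, and not in Mmp10. The letters of the cyclic AMP response element, TGACGTCA, which 1.45% of promoters hold, were not in either stretch. These matches describe letters and do not show that a factor binds.

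Total counts per library ranged from 15886958 to 32933012. Levels are given in CPM, a gene's counts relative to the total of its library, after TMM scaling, which corrects for differences in library makeup, and the scaling factors ranged from 0.894 to 1.08. They averaged 1.07 ± 0.00869 (SD, n = 6) with TGFb and Pirf and 0.964 ± 0.051 with TGFb alone. Both genes passed the filter on low counts. The authors' values are estimates that can share a read between similar genes, and Mmp3 and Mmp10 are paralogs. Their values were whole in 34 of 36 libraries. In the other 2, Sora replicates 4 and 5, both values were fractional and their sum was whole, at 4029 and 4420 counts, as when reads are divided between these 2 genes. In whole lung tissue, fewer cells that make a transcript and less transcript per cell cannot be told apart.

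Among the 5 groups labelled 72, Pirf stood apart from all others for both genes. Mmp3 averaged 2.73 ± 1.05 CPM with TGFb and Pirf, 109 ± 45.8 with TGFb and Nint, 104 ± 39.9 with TGFb and Sora, 88.1 ± 42.4 with TGFb alone and 169 ± 95.9 in untreated slices at 72, against 19.3 ± 6.12 in untreated slices at 0 (SD, n = 6 each). Mmp10 averaged 0.597 ± 0.285, 22.3 ± 7.78, 16.5 ± 7.77, 21 ± 10.6 and 28.4 ± 9.66 CPM in the groups labelled 72 in the same order, against 2.48 ± 1.03 in untreated slices at 0. The 4 groups at 72 without Pirf overlapped one another for both genes, and none of them overlapped the time-0 group or the Pirf group. Such separation was common. Of all tested genes, 26.3% showed it for untreated slices at 72 above time 0, and 16.4% for Pirf below TGFb alone. The share was not counted for the other pairs of these groups.

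**Figure D1:**
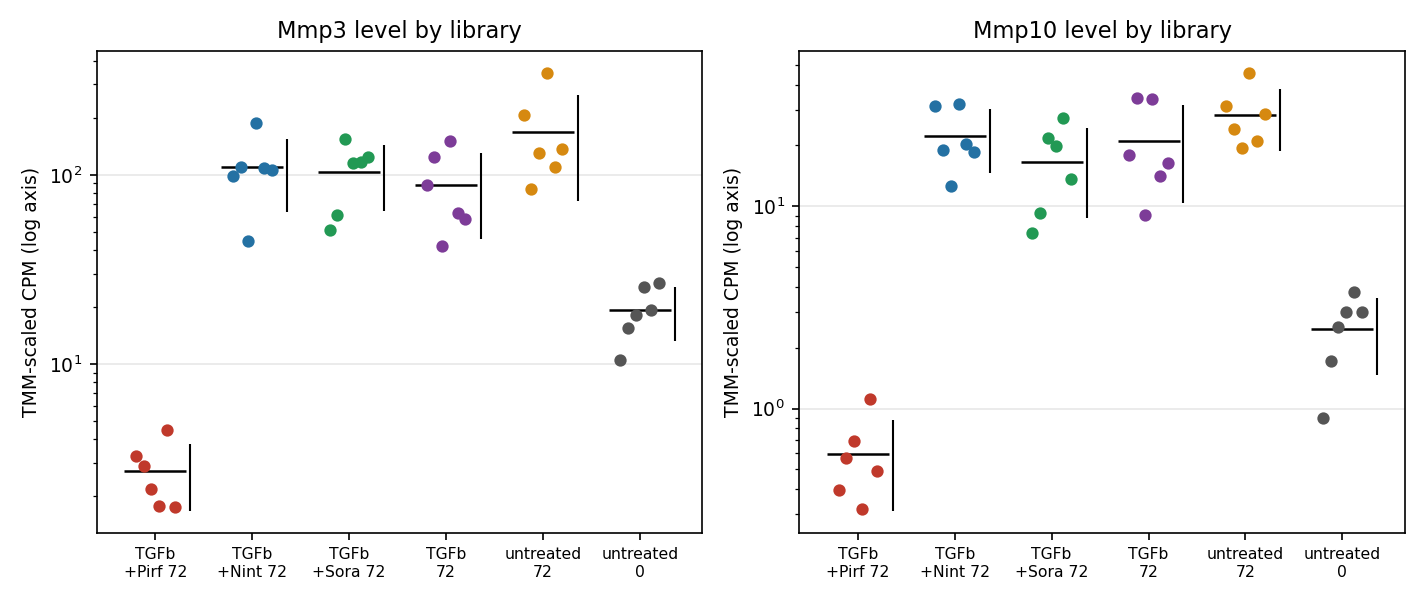
Level of Mmp3 (left) and Mmp10 (right) in each library, in TMM-scaled CPM on log axes. Points are libraries, horizontal bars group means and vertical bars 1 SD on each side (n = 6 per group). The Pirf libraries lie at 1.76 to 4.49 CPM for Mmp3, below all others, and at 0.320 to 1.12 CPM for Mmp10, where 1 time-0 library at 0.898 CPM lies below the highest of them.

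Untreated slices at 72 were set beside untreated slices at 0, the contrast by which the genes were chosen. Mmp3 ranged from 83.9 to 346 CPM with a median of 134 in untreated slices at 72, against 10.5 to 26.8 CPM with a median of 18.8 at 0. All 6 libraries at 72 lay above all 6 at 0. The log2 fold change was 3.13 (SE 0.37), or 8.72-fold. Mmp10 ranged from 19.4 to 45.8 CPM with a median of 26.3 at 72, against 0.898 to 3.77 CPM with a median of 2.75 at 0. Its log2 fold change was 3.52 (SE 0.37), or 11.5-fold. Of 15644 tested genes, 26.3% likewise had all 6 libraries at 72 above all 6 at 0.

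With TGFb and Pirf, set beside TGFb alone, both genes were near their lowest levels, also a contrast used to choose them. Mmp3 ranged from 1.76 to 4.49 CPM with a median of 2.55 with Pirf, against 42 to 152 CPM with a median of 75.6 with TGFb alone. This was a log2 fold change of -4.98 (SE 0.42), or 31.5-fold lower. Mmp10 ranged from 0.320 to 1.12 CPM with a median of 0.532 with Pirf, against 9.08 to 34.1 CPM with a median of 17.2 with TGFb alone. Its log2 fold change was -5.08 (SE 0.42), or 33.8-fold lower, and only 3 of the 15644 genes had a more negative one. Mmp3 followed as the 5th most lowered. The Pirf and TGFb-alone libraries did not overlap for either gene, and neither did those of 16.4% of all genes in this direction. Without TMM factors the log2 fold changes were -4.81 and -4.92. The Pirf libraries held 39 to 157 counts of Mmp3 and 7 to 39 counts of Mmp10, so counting error weighs more on Mmp10 there.

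Set beside untreated slices at 0, the Pirf libraries were lower by a log2 fold change of -2.79 (SE 0.4) for Mmp3, which is 6.93-fold lower, and Mmp10 was 3.99-fold lower. For Mmp3 every Pirf library lay below every time-0 library, at 4.49 CPM or less with Pirf and 10.5 CPM or more at 0, a separation in this direction that 25.7% of genes showed. For Mmp10 the groups overlapped. Pirf replicate 5 held 1.12 CPM, and time-0 replicate 1 held 0.898 CPM. The position below the time-0 level thus held for every Mmp3 library, and for Mmp10 it held for the group means and 5 of 6 Pirf libraries.

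The response to TGFb itself was read by setting TGFb alone against untreated slices at 72. The choice of genes did not use this contrast, although both groups also stand in contrasts that it did. It asked for high levels in the untreated libraries at 72, which favours lower values with TGFb beside them. The p-values of this contrast are therefore not independent of the choice. Mmp3 was lower with TGFb, at 42 to 152 CPM with a median of 75.6, against 83.9 to 346 CPM with a median of 134 in untreated slices. The groups overlapped, and 3 TGFb libraries, at 88.3, 125 and 152 CPM, lay above the lowest untreated library. The log2 fold change was -0.94 (SE 0.34, edgeR adjusted p = 0.0375), or 1.92-fold lower, in a comparison that called 26.4% of genes, with 12.4% of all genes called lower. The call was narrow. It was lost without any 1 of 6 libraries (edgeR adjusted p = 0.0734 without untreated replicate 1, 0.193 without untreated replicate 4, and 0.0569, 0.0867, 0.0767 and 0.0842 without TGFb replicates 1, 3, 5 and 6), in a fit of these 12 libraries alone (0.0851) and without the low-count filter (0.0509). Without untreated replicate 4, the highest library at 346 CPM, the log2 fold change was -0.60.

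Mmp10 did not pass the test for TGFb. It ranged from 9.08 to 34.1 CPM with a median of 17.2 with TGFb, against 19.4 to 45.8 CPM with a median of 26.3 in untreated slices. Here 4 TGFb libraries lay below all untreated libraries and the other 2, replicates 2 and 4, lay above the untreated median. The log2 fold change was -0.44 (95% interval -1.09 to 0.21, edgeR adjusted p = 0.348), so a decrease as large as that of Mmp3 lies within the interval.

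Nint was then compared with TGFb alone. Mmp3 ranged from 44.6 to 188 CPM with a median of 107 with Nint, against 42 to 152 CPM with a median of 75.6 with TGFb alone. The 2 ranges almost coincided at their low ends, and 1 Nint library, replicate 4, lay above all of those with TGFb alone. The log2 fold change was 0.31 (95% interval -0.37 to 0.996, edgeR adjusted p = 0.836). Mmp10 ranged from 12.6 to 32.2 CPM with a median of 19.7 with Nint, against 9.08 to 34.1 CPM with a median of 17.2 with TGFb alone. All Nint libraries lay within the range of TGFb alone. Its log2 fold change was 0.09 (95% interval -0.56 to 0.74, edgeR adjusted p = 0.964). Of all genes 3.09% were called in this comparison. The intervals leave room for changes of up to 1.99-fold upward for Mmp3, and their lower bounds for the fold were 0.772 for Mmp3 and 0.68 for Mmp10.

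Sora was compared with TGFb alone in the same way. Mmp3 ranged from 51 to 155 CPM with a median of 116 with Sora, against 42 to 152 CPM with a median of 75.6 with TGFb alone. Of the 6 Sora libraries 4 lay between 115 and 155 CPM and 2 lay at 51 and 61.5. The log2 fold change was 0.24 (95% interval -0.44 to 0.92, edgeR adjusted p = 0.668). Mmp10 ranged from 7.36 to 27.4 CPM with a median of 16.7 with Sora, against 9.08 to 34.1 CPM with a median of 17.2 with TGFb alone. Sora replicates 1 and 2, low for Mmp3, were also the lowest for Mmp10. The log2 fold change was -0.34 (95% interval -0.99 to 0.31, edgeR adjusted p = 0.503). This comparison called 15.4% of genes and neither stromelysin.

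The kinase inhibitors were also compared with each other and with untreated slices at 72. Sora against Nint gave log2 fold changes of -0.07 for Mmp3 (95% interval -0.75 to 0.61, edgeR adjusted p = 0.918) and -0.43 for Mmp10 (-1.08 to 0.22, adjusted p = 0.387), where 11% of genes were called. The sign for Mmp3 turned without TMM scaling, at 0.02. Nint with TGFb against untreated slices gave -0.63 for Mmp3 (95% interval -1.31 to 0.06, edgeR adjusted p = 0.176) and -0.34 for Mmp10 (-0.99 to 0.31, adjusted p = 0.475), where 26.4% of genes were called. Sora with TGFb against untreated slices gave -0.70 for Mmp3 (95% interval -1.38 to -0.01, edgeR adjusted p = 0.125) and -0.78 for Mmp10 (-1.43 to -0.12, adjusted p = 0.0726), where 25% were called. The Mmp10 difference passed the threshold without Sora replicate 5, the highest Sora library at 27.4 CPM (log2 fold change -0.98, edgeR adjusted p = 0.0256). Without any other single library it did not pass. The edgeR adjusted p reached 0.211 without untreated replicate 4 (log2 fold change -0.58). The comparisons with untreated slices share those libraries with the TGFb comparison. The choice of genes asked for high levels in these untreated libraries, so the differences from them are not independent of it.

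**Figure D2:**
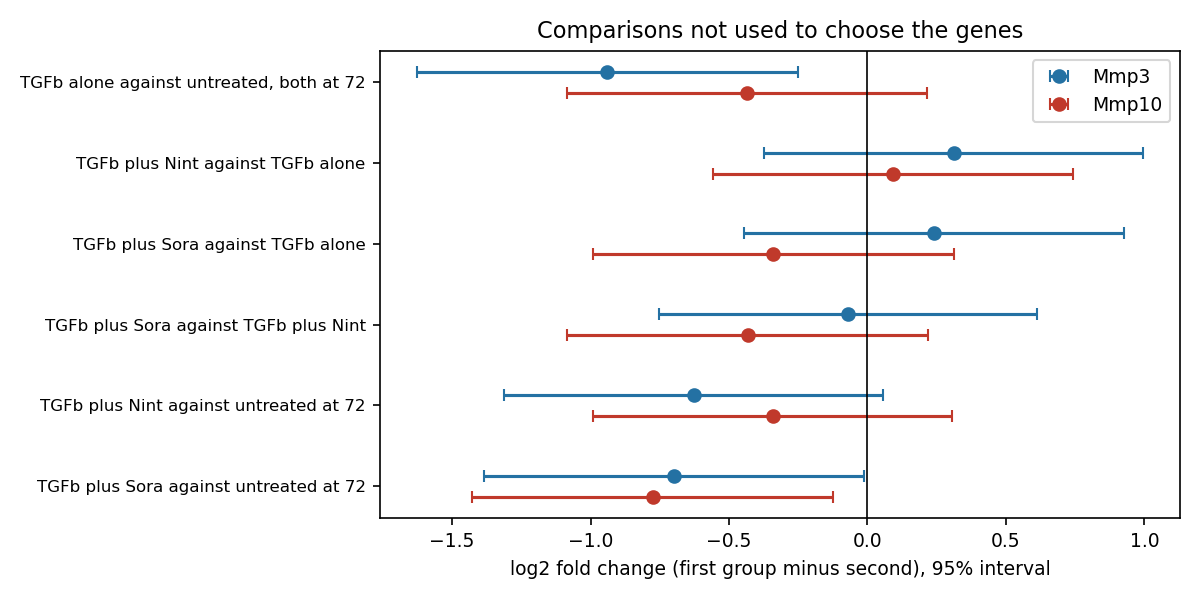
Log2 fold changes of Mmp3 and Mmp10 in the 6 comparisons that were not used to choose the genes. Values are the first-named group minus the second, with 95% intervals from the edgeR fit of 36 libraries. The untreated and TGFb-alone libraries also stand in contrasts that the choice did use. The interval of Mmp3 for TGFb alone against untreated slices runs from -1.63 to -0.25, and it is the only one of the 12 values with an adjusted p under 0.05.

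In order of mean level, Mmp3 ran from untreated slices at 72 through Nint, Sora and TGFb alone to untreated slices at 0 and Pirf, and Mmp10 ran in the same order except that TGFb alone stood above Sora. Neighbours among the first 4 groups did not differ beyond their spread for either gene. Replicates varied widely. After removal of group means, the SD of log2 CPM was 0.63 for Mmp3 and 0.63 for Mmp10, against a median of 0.20 over all tested genes, and 91.1% of genes varied less than either of them. Within the untreated group at 72 the highest Mmp3 library held 4.12 times the lowest. Replicate 4 of that group was the highest for both genes, at 346 CPM of Mmp3 and 45.8 CPM of Mmp10.

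Covariation of the genes from library to library was read within groups. Across the 6 libraries of each group, log2 levels of Mmp3 and Mmp10 gave Pearson r = 0.65 with Pirf, 0.80 with Nint, 0.88 with Sora, 0.97 with TGFb alone, 0.86 in untreated slices at 72 and 0.87 at 0. The exact permutation p-values over pairings were 0.16, 0.0764, 0.0292, 0.00556, 0.0306 and 0.0208 in that order of groups, and 0.16, 0.0917, 0.0458, 0.0333, 0.0458 and 0.0458 after adjustment over 6 groups. Of the 4 values under 0.05, those with Sora, in untreated slices at 72 and at 0 were lost without TMM factors (adjusted exact permutation p = 0.0583, 0.0583 and 0.0542), and that with TGFb alone was kept at 0.0417. Spearman's rho was 0.49, 0.60, 0.71, 0.89, 0.77 and 0.83, with exact permutation p-values of 0.356, 0.242, 0.136, 0.0333, 0.103 and 0.0583, none under 0.05 after adjustment (0.175 to 0.356). Without the 2 libraries farthest from the median Mmp3 level, r was 0.22 with Pirf, -0.89 with Nint, 0.03 with Sora, 0.91 with TGFb alone, 0.78 in untreated slices at 72 and 0.64 at 0. With Pirf, Nint and Sora, the value of r thus depended on those 2 libraries. Leaving them out also narrows the range of Mmp3, to 99.1 to 110 CPM with Nint. An r over the 4 libraries left cannot show whether a relation held among them. The r of other gene pairs was not computed, so these values do not show a covariation particular to this pair.

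**Figure D3:**
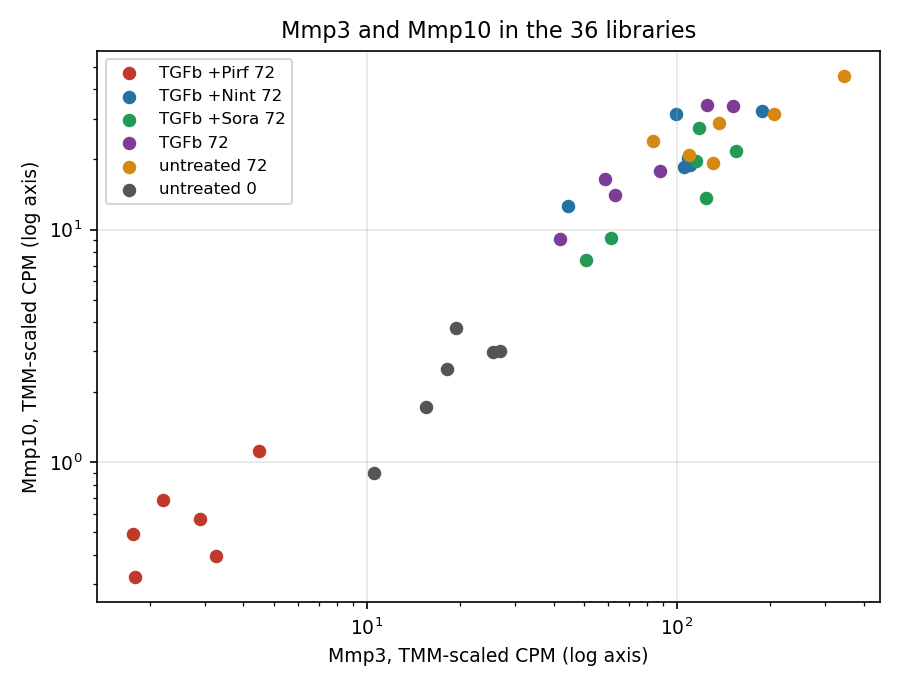
Mmp3 (horizontal axis) against Mmp10 (vertical axis) in the 36 libraries, both in TMM-scaled CPM on log axes, coloured by group. The Pirf and time-0 libraries form separate clusters below the 4 other groups, which share one region between 42 and 346 CPM of Mmp3.

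Whether the 2 genes moved by the same factor was read from the ratio of their counts within each library, which needs no scaling between libraries. The ratio compares groups and not the abundance of the genes, since it is not corrected for length. Per 100 counts of Mmp3 there were 22.3 ± 7.07 counts of Mmp10 with TGFb and Pirf, 21.8 ± 6.47 with Nint, 15.8 ± 4.18 with Sora, 23.7 ± 3.22 with TGFb alone, 18.7 ± 5.69 in untreated slices at 72 and 12.6 ± 3.76 at 0 (SD, n = 6 each). With TGFb and Pirf, set beside TGFb alone, the mean log2 ratio differed by -0.10 while the genes were 31.5-fold and 33.8-fold lower. In untreated slices at 72, set beside those at 0, it was higher by 0.54. These differences belong to contrasts used to choose the genes and were not tested.

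For Sora against TGFb alone, the mean log2 ratio was lower by 0.61, or 1.52-fold (two-sided exact permutation test, p = 0.0108, adjusted p = 0.0649 over 6 comparisons), which failed the correction. Sora libraries held 11 to 23.4 counts of Mmp10 per 100 of Mmp3 with a median of 14.7, against 20.2 to 28 with a median of 22.4 with TGFb alone, and 5 of 6 Sora libraries lay below all TGFb libraries. The sixth was Sora replicate 5, 1 of the 2 libraries with fractional counts. That library is the 1 that overlaps the TGFb-alone group, so without it the groups separate fully and the test must return its smallest p. The adjusted p was then 0.013. Without both libraries with fractional counts, left out after seeing the data, it was 0.0286. No conclusion was drawn from these 2 values. Without other single libraries the adjusted p reached 0.104. An exact permutation test within pairs of the same replicate number gave an adjusted p of 0.188. With 6 pairs such a test can hardly pass the correction over 6 comparisons, so no conclusion was drawn from it. For TGFb alone against untreated slices the ratio was higher by 0.38 (exact permutation p = 0.0606, adjusted p = 0.173), so a different response of Mmp3 and Mmp10 to TGFb was not shown. Without untreated replicate 2, the highest of its group, the adjusted p was 0.026, and over all alternatives it lay between that value and 0.247. The 4 other comparisons gave adjusted exact permutation p-values of 0.173 to 0.39.

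**Figure D4:**
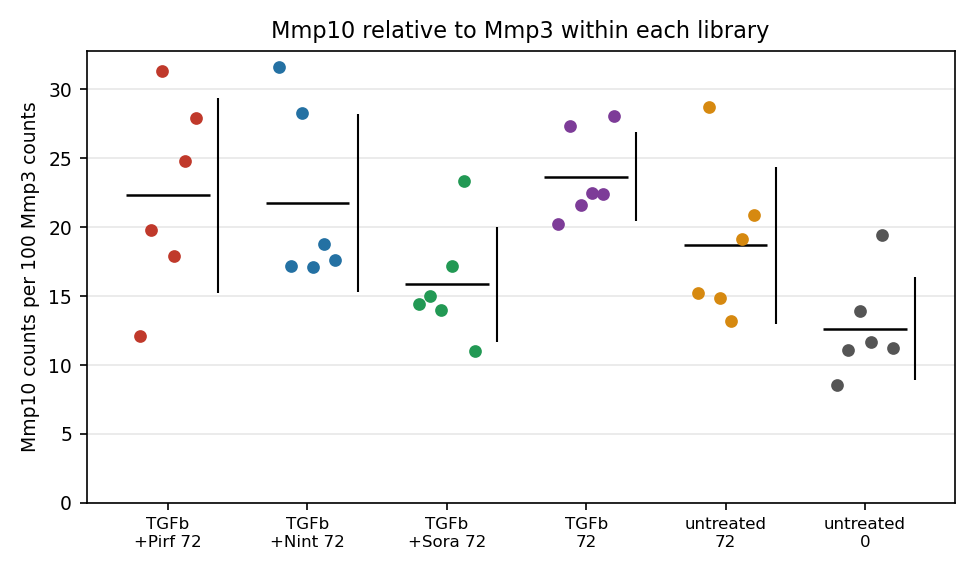
Mmp10 counts per 100 Mmp3 counts in each library. Points are libraries, horizontal bars group means and vertical bars 1 SD on each side (n = 6 per group). Sora libraries average 15.8 and TGFb-alone libraries 23.7, with 1 Sora library at 23.4.

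Likeness of pattern was measured over the 6 groups. Log2 CPM was averaged per group and centred on the mean of the 6 group values, and genes were ranked by the root mean square difference from each stromelysin. Of 15643 other tested genes Mmp10 was nearest to Mmp3, with a difference of 0.33, and Mmp3 was nearest to Mmp10. The median over all genes was 2.05 for Mmp3 and 2.02 for Mmp10. Since the pair was chosen for its shared pattern, this is a description. After Mmp10, the nearest to Mmp3 were ENSRNOG00000008478 (0.62) and ENSRNOG00000010507 (0.80). The nearest to Mmp10 after Mmp3 were ENSRNOG00000014320 (0.69) and ENSRNOG00000008525 (0.74). The sources used here pair none of these IDs with a symbol.

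All 4 IDs had their lowest group mean with Pirf, which the ranking favours. ENSRNOG00000008478 averaged 1.05 ± 0.47 CPM with Pirf and 14.2 ± 7.74 with TGFb alone, and 24.2 ± 16.4 in untreated slices at 72, against 7.93 ± 3.1 at 0 (SD, n = 6 each). ENSRNOG00000014320 averaged 4.23 ± 0.863 CPM with Pirf and 101 ± 30.6 with TGFb alone. It held 44.6 ± 14.6 CPM in untreated slices at 72, so its mean was higher with TGFb than without, whereas the means of both stromelysins were lower with TGFb. ENSRNOG00000008525 averaged 4.84 ± 2.55 CPM with Pirf and 39.6 ± 31.4 with TGFb alone, and these groups overlapped, at up to 9.58 CPM with Pirf and from 4.99 CPM with TGFb alone. ENSRNOG00000010507 was low throughout, at 0.136 ± 0.0481 CPM with Pirf and 4.18 ± 2.48 with TGFb alone.

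**Figure D5:**
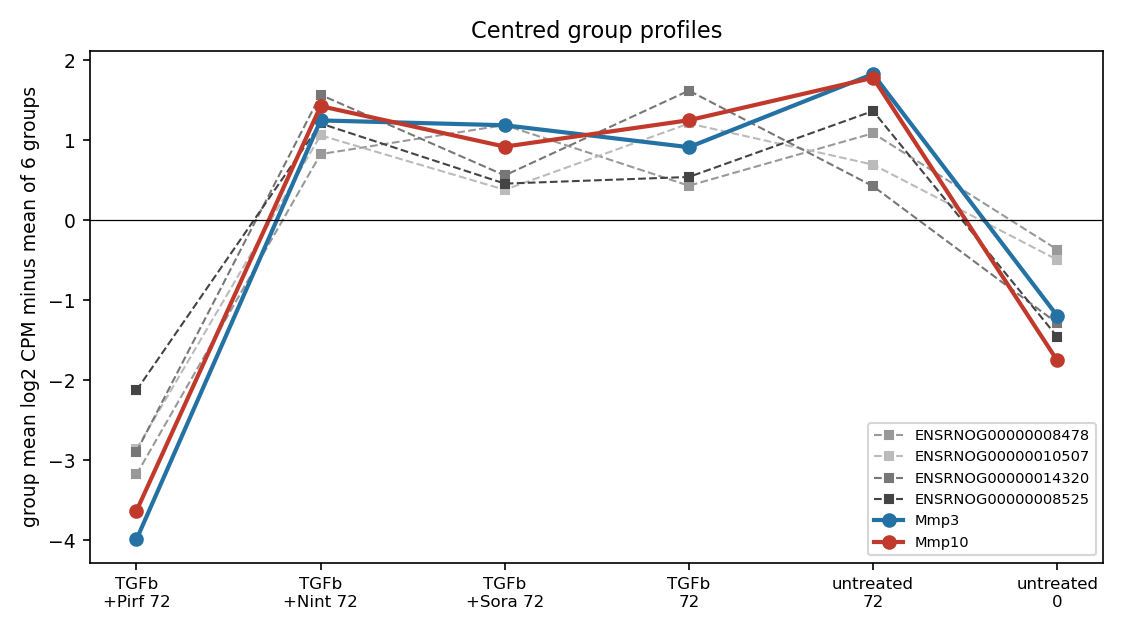
Group means of log2 CPM, each gene centred on the mean of its 6 groups, for Mmp3 and Mmp10 (solid lines) and the 4 IDs named as nearest to them (dashed lines). Mmp3 and Mmp10 lie farthest apart at time 0, at -1.19 and -1.75, and all 6 lines are lowest with Pirf.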

How the data were processed

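Stranded total RNA libraries depleted of ribosomal RNA were sequenced, per the labels' protocols, in 36 libraries of 6 groups. RSEM, edgeR and the build Rnor_6.0 are named per the submitters' processing notes. The aligner, annotation release and strand setting were not stated there. The authors deposited expected counts per gene, unscaled, with 8.34% of values not whole, and log2 CPM values of 14984 coding genes, which equalled edgeR's log2 CPM (TMM, prior count 0.25) within 4.97e-14 and were not used further.

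Rounded counts were fitted in R 4.3.3 with edgeR 4.0.16 (filterByExpr, TMM, glmQLFit over all 36 libraries with a mean per group, glmQLFTest), with Benjamini-Hochberg adjustment over 15644 genes and a threshold of 0.05. The procedure was tested on simulated data. The SE was derived from the log2 fold change and its F statistic. Ratios used a pseudocount of 0.5 and exact permutation tests, whose smallest p for 6 against 6 is 0.0022. The reference table pairs 0 of the tested IDs with a symbol, so lists of other metalloproteinases, inhibitors, regulators and cell markers were not run. By the naming rule, the 2 genes and 2 IDs of like pattern for each are named. Members and lists were chosen with earlier results of these data known. No libraries of a group agreed within sampling noise (chi-square per degree of freedom of at least 13.1 in 90 pairs). Alternatives were DESeq2 1.42.0, no TMM factors, no filter, the 2 groups alone, a replicate block, other ratio pseudocounts and leaving out each library. Replicate numbers follow the alphabetical order of the description codes in all 6 groups.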

Additional observations from a re-analysis of the deposited data

How the results depend on the processing

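The stromelysin log2 fold changes of untreated slices at 72 against 0, and of Pirf against TGFb alone and against time 0, kept their sign and moved by less than the spread between libraries under DESeq2, no TMM factors, no filter, the 2 groups alone, the replicate block and without any 1 library. For the tested comparisons, DESeq2 changed no call and no direction. Mmp3 with TGFb against untreated slices was -0.96 without the filter and -0.94 in the 2 groups alone, with the call lost, and ran from -1.16 to -0.60 without single libraries. Mmp3 with Sora against Nint turned to 0.0176 without TMM factors and 0.0147 with the replicate block, and ran from -0.23 to 0.15 without single libraries, and Mmp10 with Nint against TGFb alone ran from -0.0474 to 0.29. Mmp10 with Sora against untreated slices was called without Sora replicates 4 and 5 (-1.12, chosen after seeing the data) and ran from -0.98 to -0.58 without single libraries. The ratio with Sora against TGFb alone passed the correction without these 2 libraries (-0.80), an outcome fixed once the groups no longer overlap. It ran from -0.73 to -0.51 without single libraries. With TGFb against untreated slices it ran from 0.29 to 0.52. Without TMM factors, r of Mmp3 and Mmp10 was 0.89 at time 0, 0.84 in untreated slices at 72 and 0.86 with Sora, with adjusted p over 0.05. Genes called for Sora against Nint numbered 1720, 1133 without the filter and 942 to 2819 without single libraries. Those for Sora against TGFb alone numbered 2406, 1423 in the 2 groups alone and 1640 to 3232 without single libraries. Those for Nint against TGFb alone numbered 483, and 299 to 572 without single libraries. The cause was not tested.

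The replicate block changed no call of either stromelysin (Mmp3 with TGFb, -0.91, edgeR adjusted p = 0.0333). Same-numbered libraries deviated from their group means with correlations of -0.313 to 0.561 (median -0.00434 over 90 pairs, 22 of them over 0.1). The numbers were not taken as pairs, but whether some same-numbered libraries share an animal cannot be read from this. Over the 6 tested comparisons, which hold no Pirf or time-0 library, a library was matched to those of the other group 36 times. The same library could count more than once. In 5 of these 36 matches the best correlation was with its own number. Depth limits Mmp10 with Pirf, at 7 to 39 counts a library.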
